A study of Mus musculus with 4 samples.

Results

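Oligodendrocyte precursor cells (OPCs) were read in single-nucleus RNA sequencing of mouse hippocampus as a class of 500 nuclei among 58051. A barcode counted as a nucleus when it held at least 500 unique molecular identifiers (UMIs, each standing for 1 captured RNA molecule) with at most 5% of them mitochondrial. An OPC nucleus carried at least 3 UMIs, from at least 2 genes, of the 8 genes Pdgfra, Vcan, Cspg4, Sox10, Tnr, Lhfpl3, Olig1 and Olig2. At least 1 of those UMIs came from Pdgfra, Cspg4 or Vcan, and the sum exceeded that of 10 genes of oligodendrocytes, astrocytes and excitatory neurons (Prr5l, St18, Mog, Mobp, Slc1a3, Mertk, Prox1, Glis3, Man1a and Grik4). The levels of these 18 genes chose the nuclei and are given below as a description only.

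The 2 trained libraries came from mice trained in active place avoidance, a spatial memory task in which the animal learns to keep out of a shock zone, and the 2 untrained libraries came from control mice. Hippocampi were collected 3 days after memory retention had been tested, and recall was not provoked. Mice of both groups carried ArcCreERT2::eYFPflx, in which a tamoxifen-inducible Cre driven by Arc regulatory sequence tags neurons that used Arc at the time of induction. The design text speaks of 2 mice a group, but no label ties a library to a mouse, so the p-values below refer to these libraries and not to mice. Those of edgeR use a variance shared in part over all genes tested. They therefore do not measure each gene's own spread between libraries alone.

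OPCs are glial cells that stay spread through the adult brain, divide slowly and can mature into myelinating oligodendrocytes. Platelet-derived growth factor signalling through PDGFRA keeps them proliferating, while SOX and OLIG transcription factors hold their lineage identity. They carry chondroitin sulfate proteoglycans such as NG2 on their surface and receive synaptic input from neurons through glutamate and GABA receptors.

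The trained libraries held 43 and 128 OPC nuclei of 10193 and 14891 nuclei, and the untrained libraries 205 and 124 of 19810 and 13157. Whole libraries summed to 23155826 and 26369095 UMIs (trained) and 39749125 and 24636056 UMIs (untrained). The OPC nuclei contributed 35595 and 133242 UMIs in the trained libraries, against 240688 and 149746 across the untrained libraries, with median UMIs per OPC nucleus of 730, 879, 914 and 929 in the same order. Trained replicate 1 stood apart from the other 3 libraries. It had the fewest and shallowest OPC nuclei, 33 of its 43 were chosen by Vcan with no UMI of Pdgfra or Cspg4, and no nucleus in it met the astrocyte gate defined below. Some values that rest on it, among them the share of OPC nuclei and the log2 difference of Ttr, are therefore also given without it. For some single genes its value is only pointed out. No barcode was shared by OPC nuclei of different libraries, and 336 pairs of nuclei in different libraries shared one.

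Among the genes that the gate read, Pdgfra (ENSMUSG00000029231), the receptor for platelet-derived growth factor A, had 225 and 413 CPM in OPC nuclei of the trained libraries and 345 and 294 in those of the untrained libraries (CPM, a gene's UMIs per 1000000 UMIs of the class in that library). In all other nuclei it had 7.68 and 5.20 (trained) and 5.11 and 4.46 (untrained) CPM. A UMI of Pdgfra was seen in 33.8% of OPC nuclei, in 1.45% of oligodendrocyte-gate nuclei, which should lack it, and in 0.499% of other nuclei. Vcan, the proteoglycan versican, had 1124 and 833 CPM in trained OPC nuclei and 723 and 841 in untrained ones, and was seen in 69.2% of OPC nuclei. Cspg4, which encodes NG2, had 84.3 and 173 (trained) and 141 and 200 (untrained) CPM and was seen in 16.8%. These are all genes of the cell surface and its matrix.

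The remaining gate genes differed in how much they contributed to the choice. Tnr, the matrix protein tenascin-R, was seen in 85.4% of OPC nuclei, but also in 30.4% of other nuclei. Lhfpl3, a tetraspan membrane protein, was seen in 71.6% and 11.9% of the same classes. The transcription factor genes were sparse: a UMI of Sox10 was seen in 9.20% of OPC nuclei, of Olig1 in 5.60% and of Olig2 in 3.20%, and Olig1 and Olig2 had 29 and 17 UMIs over all 500 nuclei. Pdgfra or Cspg4 was present in 10 and 66 OPC nuclei of the trained libraries and in 100 and 61 of the untrained libraries, and Vcan without either in 33 and 62 (trained) and 105 and 63 (untrained). The class was thus chosen by Vcan, Tnr and Lhfpl3 more often than by the classical surface receptor genes.

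The 250 bases before the annotated start of 2 genes are shown for the letters ACAAAG, a core bound by many SOX factors, searched on both strands; Sox6 is the gene with the smallest p of all those tested against other nuclei below, and Pdgfra is the gate's best known marker. Both were read from the RefSeq promoter table on build GRCm38.p6, which is older than the build of the counts; capitals mark the motif on either strand, chr7:116038745-116038994 is on the minus strand and chr5:75152001-75152250 on the plus strand.
Sox6: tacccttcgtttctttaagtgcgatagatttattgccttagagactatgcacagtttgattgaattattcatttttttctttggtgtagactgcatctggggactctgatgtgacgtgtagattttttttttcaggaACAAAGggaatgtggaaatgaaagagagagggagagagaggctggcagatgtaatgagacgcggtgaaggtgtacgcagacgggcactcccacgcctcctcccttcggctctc
Pdgfra: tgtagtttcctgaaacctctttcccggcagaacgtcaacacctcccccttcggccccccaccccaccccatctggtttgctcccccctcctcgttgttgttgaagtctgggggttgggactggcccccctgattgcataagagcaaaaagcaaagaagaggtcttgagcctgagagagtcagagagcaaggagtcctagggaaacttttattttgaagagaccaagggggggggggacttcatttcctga
The Sox6 window, the most upstream of 6 listed for that gene, held 1 match and the Pdgfra window none; 5 of the 6 Sox6 windows held the motif. Over all promoter windows listed there, 5408 of 32851 held the motif (16.5%), and of windows of genes higher in OPC nuclei 40 of 218 did (18.3%), against 1668 of 13524 (12.3%) for all genes in that test. The 218 windows came from 163 genes. Those of the named genes higher in OPC nuclei were 12 windows of 7 genes, and the 5 with the motif were all of Sox6. These are counts of letters in short windows and describe no binding.

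The question of whether nuclei chosen on 8 genes also carry the rest of a precursor programme was put to 22 further precursor genes that the gate did not read. This list was chosen with earlier results of these data known, so its counts are a description and not an independent check. Genes that go with a gate gene also differ in part through the choice of the nuclei. In UMI sums per library, fitted with edgeR's quasi-likelihood test with library as a block, 431 of 13882 genes differed between OPC nuclei and all other nuclei of the same libraries at a Benjamini-Hochberg adjusted p under 0.05, which is 3.1% of those tested. Of these, 231 were higher in OPC nuclei (1.66%) and 200 lower (1.44%). Of the 22 precursor genes, 18 were higher and 0 lower, with a median log2 difference of 1.64 against -0.12 over all genes tested. Without Trained replicate 1 the count was 19 of 22. With only the OPC nuclei that held Pdgfra or Cspg4, a choice made after seeing the data, 14 of the 21 that could be tested were higher. Over all settings tried the count ran from 10 to 20 and the median log2 difference from 0.91 to 1.73; the 10, with 1 lower, were in members without a UMI of 5 neuronal genes, and the 0.91 among nuclei with at least 1000 UMIs.

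Several of these genes encode or lie beside transcription factors. Sox6, a SOX factor known for holding back maturation of the lineage, had 365 and 375 CPM in OPC nuclei of the trained libraries and 457 and 548 in those of the untrained libraries, against 58.4 and 45.5 (trained) and 62.6 and 56.1 (untrained) in other nuclei. The 4 OPC values lay above all 4 values of other nuclei, with a log2 difference of 2.90 (SE 0.135, edgeR adjusted p = 4.62e-98). A UMI of Sox6 was seen in 37.0% of OPC nuclei, 5.97% of oligodendrocyte-gate nuclei and 25.0% of astrocyte-gate nuclei. Thinned to 500 UMIs per nucleus, these shares were 26.0%, 3.41% and 16.5%. Sox2ot, a long noncoding RNA whose locus contains Sox2, had 618 and 555 (trained) and 681 and 868 (untrained) CPM in OPC nuclei, against 133 and 147 (trained) and 131 and 125 (untrained) in other nuclei. Its log2 difference was 2.26 (SE 0.108, edgeR adjusted p = 1e-92), and the classes did not overlap. Sox5, a close relative of Sox6, was higher by 0.87 on the log2 scale (edgeR adjusted p = 3.97e-11), whereas Sox8 at 1.66 did not pass (edgeR adjusted p = 0.0534).

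Surface and adhesion genes outside the gate were also higher. Ptprz1, a receptor tyrosine phosphatase that is itself a chondroitin sulfate proteoglycan, had 337 and 585 CPM in trained OPC nuclei and 536 and 574 in untrained ones, against 160 and 145 (trained) and 142 and 145 (untrained) in other nuclei. Its log2 difference was 1.79 (SE 0.116, edgeR adjusted p = 3.31e-50). Pcdh15, a protocadherin, had 337 and 1013 (trained) and 972 and 908 (untrained) CPM in OPC nuclei, against 203 and 321 (trained) and 302 and 279 (untrained) in other nuclei. Trained replicate 1 was the low library for Pcdh15 in both classes, and its OPC value lay close to the highest value of other nuclei. The log2 difference over the 4 libraries was 1.52 (SE 0.101, edgeR adjusted p = 5.49e-48). Nxph1, a secreted ligand of neurexins, Megf11, an EGF-repeat membrane protein, and Dscam, an immunoglobulin-family adhesion protein, were higher by 1.61, 2.72 and 1.01 on the log2 scale (edgeR adjusted p = 5.02e-48, 2.08e-39 and 1.07e-22). Interneurons use Nxph1 as well as Sox6, and the part of interneuron RNA in these differences was not tested. Neu4, a sialidase, had the largest log2 difference of the list at 4.30 (SE 0.407, edgeR adjusted p = 3.8e-23), from 36 UMIs over all OPC nuclei. Opcml, a membrane-anchored adhesion protein, had 3624 and 3700 (trained) and 2908 and 3533 (untrained) CPM in OPC nuclei, against 3084 and 3277 (trained) and 2695 and 3032 (untrained) in other nuclei, and was not called (log2 0.03, edgeR adjusted p = 0.95).

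**Figure D1:**
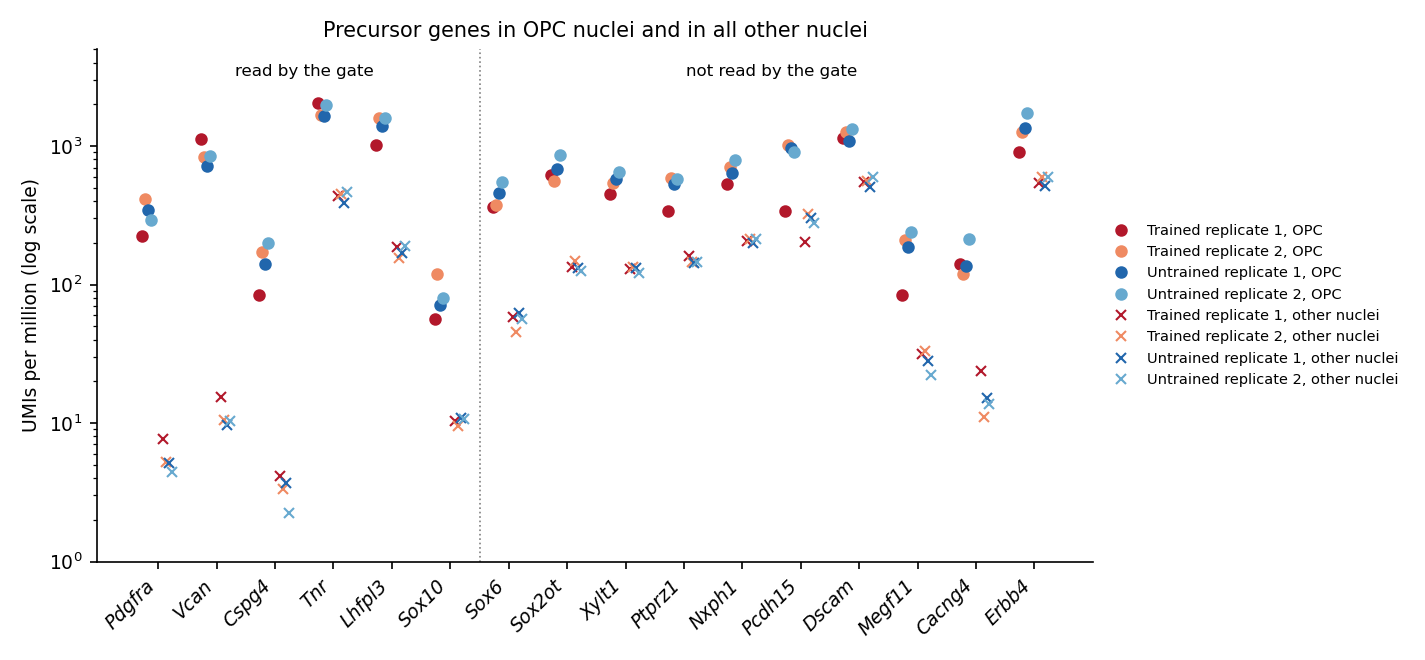
CPM on a log axis for 6 genes the gate read and 10 it did not, with dots for OPC nuclei and crosses for all other nuclei, 1 per library. Sox6 lies at 365, 375, 457 and 548 CPM in OPC nuclei and at or below 62.6 in other nuclei, while Dscam and Erbb4 are separated by less.

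Of the other genes named in this comparison, Cacng4, an auxiliary subunit of AMPA-type glutamate receptors, had 140 and 120 CPM in trained OPC nuclei and 137 and 214 in untrained ones, against 23.7 and 11.0 (trained) and 15.1 and 13.8 (untrained) in other nuclei. It was higher by 3.30 on the log2 scale (SE 0.243, edgeR adjusted p = 8.15e-39). Xylt1, the xylosyltransferase that starts glycosaminoglycan chains on proteoglycans, was higher by 2.05 (SE 0.114, edgeR adjusted p = 4.39e-68), and its 450, 540, 582 and 654 CPM in OPC nuclei stood above a highest value of 134 in other nuclei. Arhgap31, a GTPase-activating protein, was higher by 3.25, Abtb2 by 3.36 and Ppfibp1, which encodes liprin-beta-1, by 2.71 on the log2 scale (edgeR adjusted p = 1.76e-54, 4.8e-39 and 4.66e-32). Arhgap31 had 28.1 CPM in OPC nuclei of Trained replicate 1, near its 22.2 in other nuclei there, and 248, 183 and 287 in the other 3 libraries. Erbb4, a neuregulin receptor that interneurons also use, had 899 and 1261 (trained) and 1346 and 1736 (untrained) CPM in OPC nuclei, against 544 and 598 (trained) and 519 and 601 (untrained) in other nuclei, a log2 difference of 1.15 (edgeR adjusted p = 1.26e-30).

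The genes named as lower in OPC nuclei rested on few counts. Slc41a2, a magnesium transporter, had 5 UMIs in OPC nuclei and was lower by 2.10 on the log2 scale (edgeR adjusted p = 0.00431), and Rab27a, a small GTPase of vesicle transport, had 2. The 9 genes named in that direction had 2 to 22 UMIs each, and every one of them lost its call in at least 6 of the alternative settings. The count filter took both classes together, so a gene could be tested on the counts of the other nuclei alone. With at least 10 UMIs also required in OPC nuclei, a choice made after seeing the data, 478 of 8544 genes differed. Of these 290 were higher and 188 lower, and the median over all genes tested there was -0.02. The balance of the calls also depended on scaling: with DESeq2 size factors in the same edgeR test 283 genes were higher and 125 lower (69.4% higher, against 53.6% above), and the median over all genes moved to -0.04. DESeq2's own test called 177 higher and 36 lower. Lower calls outnumbered higher ones, at 289 against 140, with nuclei thinned to 500 UMIs, and at 584 against 49 in members without a UMI of 5 neuronal genes.

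Genes of committed precursors and newly formed oligodendrocytes were higher in OPC nuclei for 5 of the 14 tested, with a median log2 difference of 0.80. Bcas1, known from newly forming oligodendrocytes, had 197 and 188 CPM in trained OPC nuclei and 145 and 220 in untrained ones, against 34.3 and 48.0 (trained) and 34.4 and 38.1 (untrained) in other nuclei (log2 2.11, SE 0.196, edgeR adjusted p = 5.45e-24). Itpr2, an intracellular calcium release channel, was higher by 2.19 and Fyn, a kinase of the myelination pathway, by 0.63 (edgeR adjusted p = 6.85e-23 and 0.00347). Gpr17, a receptor of committed precursors, was higher by 2.60 from 11 UMIs (edgeR adjusted p = 0.00258), and a UMI of it was seen in 2.20% of OPC nuclei. Lims2 was higher by 1.93 (edgeR adjusted p = 0.0328). Of the 14 myelin genes tested 0 were higher in edgeR (1 at an unadjusted p under 0.05; 0 in DESeq2) and 1, Pex5l, was lower (log2 -0.37, edgeR adjusted p = 0.0309).

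Among cell cycle genes, 8 of 18 had enough counts to be tested and 0 were called by edgeR or DESeq2 (edgeR, 1 in each direction at an unadjusted p under 0.05). Top2a and Mki67, both used to mark dividing cells, had a UMI in 3 and 6 of the 500 OPC nuclei. Top2a was thus seen in 0.6% of OPC nuclei and in 0.0556% of other nuclei, and Mki67 in 1.20% and 0.730%. With every nucleus thinned to 500 UMIs, 1 OPC nucleus held a UMI of Top2a and 1 of Mki67. Cdk1, Aurkb, Kif11, Cenpf and Rrm2 had no UMI in any OPC nucleus; 0 of 500 nuclei allows a share of up to 0.6% with a UMI, counting error only. Immediate early genes, which neurons switch on with activity, were called for 0 of 12 by edgeR or DESeq2 (edgeR, 2 lower at an unadjusted p under 0.05), and Arc had 11 UMIs over all OPC nuclei.

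With all OPC nuclei in the main test, receptor and channel genes had smaller differences from other nuclei than the precursor genes above. Of 20 glutamate receptor genes 3 were higher and 6 lower, with a median log2 difference of -0.20. Grin3a, an unusual NMDA receptor subunit, had 112 and 225 CPM in trained OPC nuclei and 133 and 140 in untrained ones, against 76.8 and 70.2 (trained) and 68.6 and 77.2 (untrained) in other nuclei (log2 1.01, SE 0.187, edgeR adjusted p = 1.05e-05). The kainate receptor subunit Grik1 was higher by 0.55 (edgeR adjusted p = 0.00447). The AMPA receptor subunit Gria1 had 1629 and 1494 CPM in trained OPC nuclei and 1010 and 1823 in untrained ones, against 2046 and 2220 (trained) and 1582 and 2230 (untrained) in other nuclei, lower in each library though the ranges overlapped (log2 -0.61, edgeR adjusted p = 3.04e-07). Grin2a was lower by a similar -0.60 (edgeR adjusted p = 3.84e-07), and Grin1, Grin2b, Grm5 and Grm7 by -0.39 to -0.48. With DESeq2 size factors the split was 5 higher and 5 lower. Over all settings tried, 0 to 5 were higher and 0 to 11 lower, with medians from -1.79 to -0.01. Of 13 GABA receptor genes 2 were lower, Gabrb1 among them, and of 21 ion channel genes 2 were lower, Cacna1a and Cacna1e. In each of these lists 0 were higher in edgeR or DESeq2 (edgeR, 1 each at an unadjusted p under 0.05). Over all settings, 0 to 5 GABA receptor genes were lower, with medians from -1.49 to -0.17. For ion channel genes 0 to 9 were lower, with medians from -1.17 to -0.08.

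Matrix and signalling lists gave a few calls each. Of 12 matrix genes 3 were higher, which were Xylt1, the proteoglycan gene Bcan (log2 0.99, edgeR adjusted p = 0.0031) and the chondroitin sulfotransferase gene Chst11 (log2 0.88, edgeR adjusted p = 0.000172). Of 16 Notch pathway genes the receptor gene Notch1, its coactivator Maml2 and the contactin gene Cntn1 were higher, and of 17 Wnt and BMP pathway genes only Lgr5, which encodes an R-spondin receptor, passed (log2 1.68 from 22 UMIs, edgeR adjusted p = 0.004). Of 14 growth factor receptor genes Erbb4 was higher, and Nrp1 and Epha4, a semaphorin co-receptor and an ephrin receptor, were lower. Of 26 adhesion and guidance genes 6 were higher and 5 lower, with a median log2 difference of -0.01. Over all genes tested, 1.66% were higher and 1.44% lower. Across the settings tried, 1 to 9 adhesion and guidance genes were higher and 0 to 14 lower. For matrix genes 1 to 4 were higher, for Notch pathway genes 0 to 3 and for Wnt and BMP pathway genes 0 to 1. For growth factor receptor genes 0 to 1 were higher and 0 to 3 lower.

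Neuronal RNA was present in the OPC nuclei. Summed over 12 excitatory neuron markers, OPC nuclei had 11659 and 11543 CPM in the trained libraries, against 11438 and 10671 across the untrained libraries, against 14404 and 14470 (trained) and 14317 and 13831 (untrained) in other nuclei. Of these markers 9 were lower in OPC nuclei, with a median log2 difference of -0.50. The 11 inhibitory neuron markers summed to 2585 and 2634 (trained) and 3041 and 3780 (untrained) CPM in OPC nuclei, against 2134 and 1947 (trained) and 1796 and 1986 (untrained) in other nuclei. That list includes Erbb4 and Adarb2, which, pooled over libraries, had 1265 and 1215 CPM in OPC nuclei with Pdgfra or Cspg4. In those with Vcan alone they had 1524 and 1210 CPM. Of the 11 markers 1, Erbb4, was called higher and 0 lower, with a median log2 difference of -0.07. The defining genes Gad1 and Gad2 were seen in 7.80% and 6.60% of OPC nuclei and in 7.47% and 6.64% of other nuclei. A UMI of Snap25, which neurons use for transmitter release, was seen in 50.8% of OPC nuclei and 48.7% of oligodendrocyte-gate nuclei, which should lack it. Only 6 and 20 OPC nuclei of the trained libraries and 32 and 18 of the untrained libraries had no UMI of 5 neuronal genes. Markers of fibroblasts summed to 0 and 15.0 (trained) and 37.4 and 26.7 (untrained) CPM in OPC nuclei. In other nuclei they summed to 25.2 and 32.1 (trained) and 22.9 and 25.6 (untrained) CPM. Col1a2, which would mark Pdgfra-positive fibroblasts, had no UMI in the 500 OPC nuclei. It was seen in only 0.144% of other nuclei, so its absence from 500 nuclei says little about fibroblasts.

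The gate's threshold of 3 UMIs was followed by the genes it did not read. Summed over the 22 other precursor genes, nuclei that met every other condition with 2 UMIs had 6720 and 7037 CPM in the trained libraries, against 6290 and 6926 across the untrained libraries. Members with exactly 3 UMIs had 8570 and 10202 (trained) and 8996 and 6990 (untrained), and members with 5 or more had 12660 and 13048 (trained) and 12025 and 14325 (untrained). All other nuclei had 5968 and 6271 (trained) and 5593 and 5989 (untrained). Nuclei just outside were thus closer to the other nuclei than to members with 5 or more UMIs, and in Untrained replicate 2 the 26 nuclei at exactly 3 UMIs were close to those just outside.

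**Figure D2:**
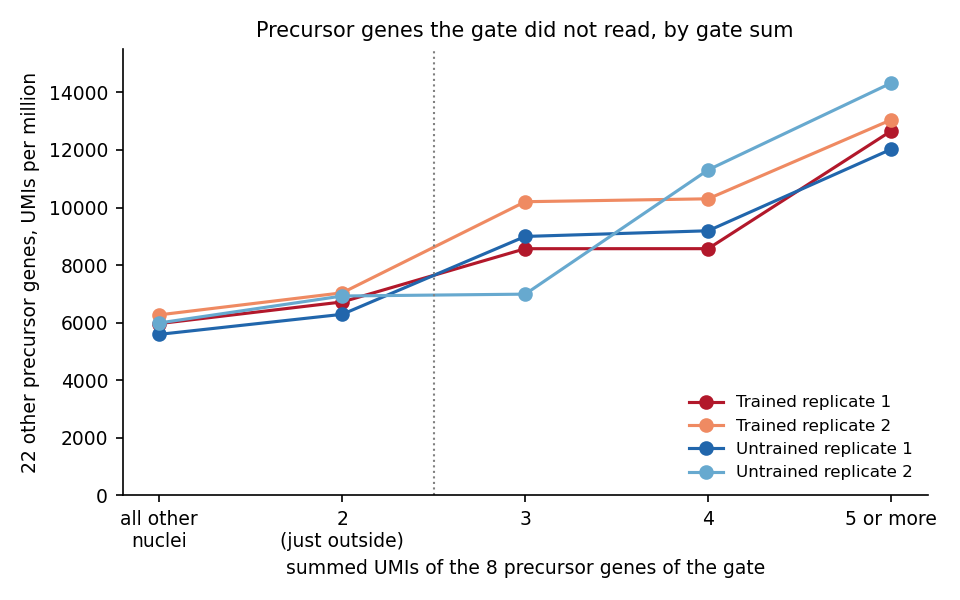
Summed CPM of the 22 precursor genes that the gate did not read, by the number of UMIs of gate genes and by library. Members with 5 or more UMIs lie between 12025 and 14325, and all other nuclei between 5593 and 6271.

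OPC nuclei that held Pdgfra or Cspg4 and those chosen by Vcan alone were set side by side. The 22 other precursor genes summed to 11382 and 12080 CPM (trained) and 11237 and 11840 (untrained) in nuclei with Pdgfra or Cspg4, against 8957 and 11403 (trained) and 10018 and 12863 (untrained) in those with Vcan alone. The first was higher in 3 of the 4 libraries and lower in Untrained replicate 2. Pooled over libraries, Sox6 had 528 CPM in nuclei with Pdgfra or Cspg4 and 392 in those with Vcan alone, and Ptprz1 had 642 and 460. Nxph1 went the other way with 630 and 743, and Megf11 had 194 and 206. These pooled values carry no test.

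Oligodendrocytes, into which OPCs mature, gave the nearest class by lineage. Oligodendrocyte-gate nuclei carried at least 3 UMIs of Prr5l, St18, Mog and Mobp, from at least 2 of them, and more than of the other gate genes; there were 102 and 299 in the trained libraries, against 390 and 381 across the untrained libraries, with median UMIs of 675.5 and 827 (trained) and 748 and 936 (untrained). With the genes of the gates left out, 497 of 4373 genes differed in edgeR's quasi-likelihood test (11.4%), 242 higher in OPC nuclei (5.53%) and 255 lower (5.83%). Genes that go with a gate gene differ in part through the choice of the nuclei. OPC nuclei had more RNA of precursor genes and less of myelin genes than the oligodendrocyte-gate nuclei.

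Of the 22 precursor genes 16 had enough counts here, 15 of these were higher, and the median log2 difference was 1.49 against -0.02 over all genes tested. Sox6 had 365 and 375 CPM in trained OPC nuclei and 457 and 548 in untrained ones, against 122 and 68.0 (trained) and 65.7 and 68.7 (untrained) in oligodendrocyte-gate nuclei (log2 2.67, SE 0.182, edgeR adjusted p = 3.21e-17). Cacng4 was higher by 3.84 (SE 0.35, edgeR adjusted p = 5.9e-13) and Xylt1 by 2.52 (edgeR adjusted p = 3.21e-17). Only Cspg5 among the 16 did not pass.

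Of 14 myelin genes 13 were lower in OPC nuclei, with a median log2 difference of -1.60; Cnp did not pass (log2 -0.77, edgeR adjusted p = 0.0572). In members without a UMI of 5 neuronal genes 3 of the 6 that could be tested were lower, and among nuclei with at least 1000 UMIs 7 of 11. Mbp, which encodes myelin basic protein, had 421 and 420 CPM in trained OPC nuclei and 337 and 434 in untrained ones, against 1035 and 1348 (trained) and 1300 and 1752 (untrained) in oligodendrocyte-gate nuclei (log2 -1.84, SE 0.13, edgeR adjusted p = 1.08e-16). Mag, an adhesion protein facing the axon, was lower by -2.11 (edgeR adjusted p = 1.57e-10). Neat1, a nuclear long noncoding RNA, had 309 and 60.0 (trained) and 87.3 and 86.8 (untrained) CPM in OPC nuclei, against 645 and 408 (trained) and 452 and 507 (untrained) in oligodendrocyte-gate nuclei (log2 -2.29, edgeR adjusted p = 6.9e-14). Trained replicate 1 was the high library for Neat1 in both classes, and the classes did not overlap. Bcas1 did not pass between the classes (log2 0.27, SE 0.184, edgeR adjusted p = 0.454), whereas Itpr2 was higher by 1.85 in OPC nuclei (edgeR adjusted p = 2.92e-07).

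Glutamate receptor genes were called in both directions against oligodendrocyte-gate nuclei. Of 18 glutamate receptor genes 5 were higher, with Grin3a at 1.34, the delta-type receptor Grid1 at 1.10 and the AMPA receptor subunit Gria4 at 0.69 on the log2 scale (edgeR adjusted p = 3.02e-05, 2.76e-08 and 7.12e-05). The metabotropic receptor Grm3 was lower, with 309 and 128 CPM in trained OPC nuclei and 237 and 140 in untrained ones, against 645 and 512 (trained) and 538 and 595 (untrained) in oligodendrocyte-gate nuclei (log2 -1.57, edgeR adjusted p = 6.09e-11). Of 26 adhesion and guidance genes 12 were higher. Excitatory neuron markers were called for 0 of 10 by edgeR or DESeq2 (edgeR, 1 higher at an unadjusted p under 0.05).

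Astrocytes, the other abundant glial class, were read by at least 3 UMIs of Slc1a3 and Mertk, with at least 1 of each and more than of the other gate genes. The gate took 0 and 66 nuclei in the trained libraries, against 101 and 69 across the untrained libraries, with median UMIs of 739.5 (Trained replicate 2) and 717 and 758 (untrained), so this comparison rests on 3 libraries and 1 trained one. Of 2498 genes 436 differed in edgeR's quasi-likelihood test (17.5%), 249 higher in OPC nuclei (9.97%) and 187 lower (7.49%). Of the 16 precursor genes tested 10 were higher and 1 lower, with a median log2 difference of 1.29 against -0.01 over all genes tested. All 6 astrocyte markers that could be tested were lower, with a median of -2.03.

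Some precursor genes were not called higher than in astrocyte-gate nuclei. Ptprz1 had 585 CPM in OPC nuclei of Trained replicate 2 and 536 and 574 in those of the untrained libraries, against 565 (trained) and 494 and 831 (untrained) in astrocyte-gate nuclei, and the difference was not called (log2 -0.13, SE 0.187, edgeR adjusted p = 0.703). Its share of nuclei with a UMI was 39.4% in both classes and 13.7% in oligodendrocyte-gate nuclei. Sox6 also did not pass (log2 0.56, SE 0.215, edgeR adjusted p = 0.0645), and Luzp2 was lower, with 630 (trained) and 582 and 654 (untrained) CPM in OPC nuclei against 1129 (trained) and 1122 and 1064 (untrained) in astrocyte-gate nuclei (log2 -0.83, edgeR adjusted p = 0.000121). Pcdh15, Dscam and Nxph1 were higher by 2.55, 2.04 and 2.72 (edgeR adjusted p = 1.21e-11, 7.86e-11 and 1.72e-10).

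Genes lower in OPC nuclei included a transporter and proteoglycans of astrocytes. Slc1a2, the main glutamate transporter of astrocytes, had 668 (trained) and 640 and 467 (untrained) CPM in OPC nuclei, against 2772 (trained) and 3311 and 3208 (untrained) in astrocyte-gate nuclei (log2 -2.39, SE 0.147, edgeR adjusted p = 1.89e-17). Gpc5, a heparan sulfate proteoglycan, was lower by -2.04 (edgeR adjusted p = 5.8e-17), although against all other nuclei it was higher by 0.94 (edgeR adjusted p = 8.93e-18). Bcan was lower by -1.32 (edgeR adjusted p = 0.00114), in contrast to its higher level against the other 2 classes. Of 26 adhesion and guidance genes 19 were higher and 3 lower, and of 17 glutamate receptor genes 8 were higher and 1, Grm3, lower. Over all settings tried, 3 to 21 of the adhesion and guidance genes and 1 to 12 of the glutamate receptor genes were higher. Of 10 excitatory neuron markers tested 4 were higher and 1 lower. The 12 on that list summed to 11543 (trained) and 11438 and 10671 (untrained) CPM in OPC nuclei, against 9668 (trained) and 8821 and 8764 (untrained) in astrocyte-gate nuclei. The part of neuronal RNA in these calls was not tested. Both glial comparisons and that with other nuclei use the same OPC sums.

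**Figure D3:**
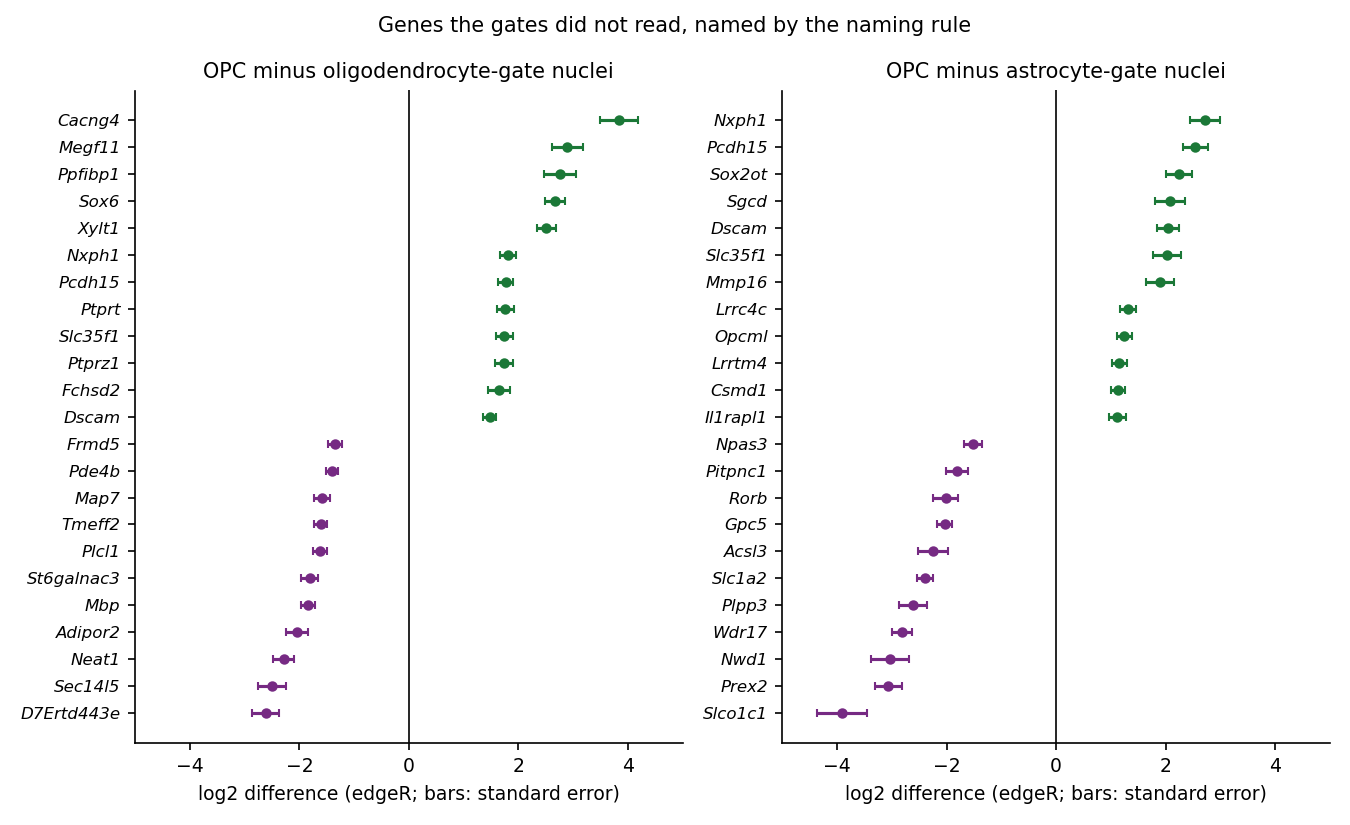
Log2 difference with SE of named genes, OPC nuclei minus oligodendrocyte-gate nuclei and OPC nuclei minus astrocyte-gate nuclei. Cacng4 lies at 3.84 and Mbp at -1.84 against oligodendrocyte-gate nuclei, and Nxph1 at 2.72 and Slc1a2 at -2.39 against astrocyte-gate nuclei.

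The next question was whether OPC nuclei differed with training, first in number. OPC nuclei made up 0.422% and 0.860% of nuclei in the trained libraries (95% Wilson intervals 0.313% to 0.568% and 0.723% to 1.02%) and 1.03% and 0.942% in the untrained libraries (0.903% to 1.19% and 0.791% to 1.12%). The mean share was 0.641% ± 0.310 in trained and 0.989% ± 0.0653 in untrained libraries (SD, n = 2 each). Both trained libraries lay below both untrained ones, with Trained replicate 1 the farther, and an exact two-sided permutation test gave p = 0.333, the smallest that 2 libraries against 2 allow. Among nuclei with at least 1000 UMIs the direction turned, with 1.26% and 1.14% in the trained libraries, against 1.24% and 0.828% across the untrained libraries (exact permutation p = 0.667). The 1.26% of Trained replicate 1 came from only 10 OPC nuclei of 791 (95% Wilson interval 0.688% to 2.31%). With every nucleus thinned to 500 UMIs the shares were 0.216% and 0.363% (trained) and 0.540% and 0.464% (untrained). The median UMIs of all nuclei were 631 and 810 in the trained libraries, against 886 and 1032 across the untrained libraries, so depth moved with the groups, and its part in the share was not tested. Without Trained replicate 1 the difference was -0.129 percentage points, against -0.348 with it.

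**Figure D4:**
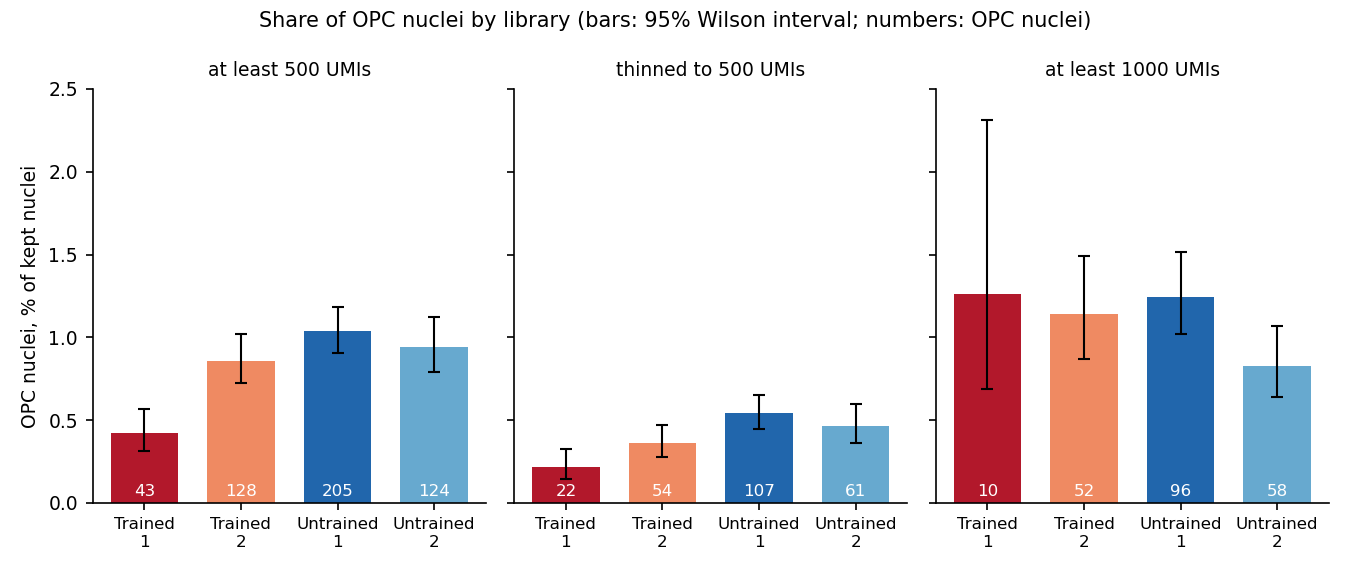
Share of nuclei in the OPC class by library with 95% Wilson intervals, for nuclei with at least 500 UMIs, for nuclei thinned to 500 UMIs and for nuclei with at least 1000 UMIs; numbers give OPC nuclei. The trained libraries lie below the untrained ones at 0.422% and 0.860% in the first setting, but at 1.26% and 1.14% among nuclei with at least 1000 UMIs they do not.

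Within OPC nuclei, 1 of 3384 genes differed between trained and untrained libraries in edgeR's quasi-likelihood test (0.0296%), and 188 had an unadjusted p under 0.05, 64 of them higher (1.89%) and 124 lower (3.66%) in trained libraries. That gene was Ttr, transthyretin, a thyroid hormone carrier made in bulk by the choroid plexus. Ttr had 1152 and 1066 CPM in OPC nuclei of the trained libraries and 303 and 427 in those of the untrained libraries. Both trained libraries lay above both untrained ones, with a log2 difference of 1.58 (SE 0.253, edgeR adjusted p = 0.000967). Without Trained replicate 1 it was 1.58 as well, whereas without Untrained replicate 1 the call was lost at 1.32 (edgeR adjusted p = 0.109).

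Outside the OPC nuclei the trained libraries were also the high ones for Ttr. In all other nuclei it had 1171 and 1103 CPM in the trained libraries, against 361 and 460 across the untrained libraries, and in barcodes under 500 UMIs, which can hold free RNA, 2669 and 3872 (trained) and 990 and 1615 (untrained). The effect of training on Ttr in OPC nuclei less that in other nuclei was -0.01 on the log2 scale (SE 0.252, edgeR adjusted p = 1). The 10 choroid plexus and ependymal markers summed to 1714 and 1373 (trained) and 590 and 781 (untrained) CPM in OPC nuclei, against 1630 and 1508 (trained) and 610 and 810 (untrained) in other nuclei. Thus Ttr was at no higher level in OPC nuclei than in the other nuclei of the same library.

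**Figure D5:**
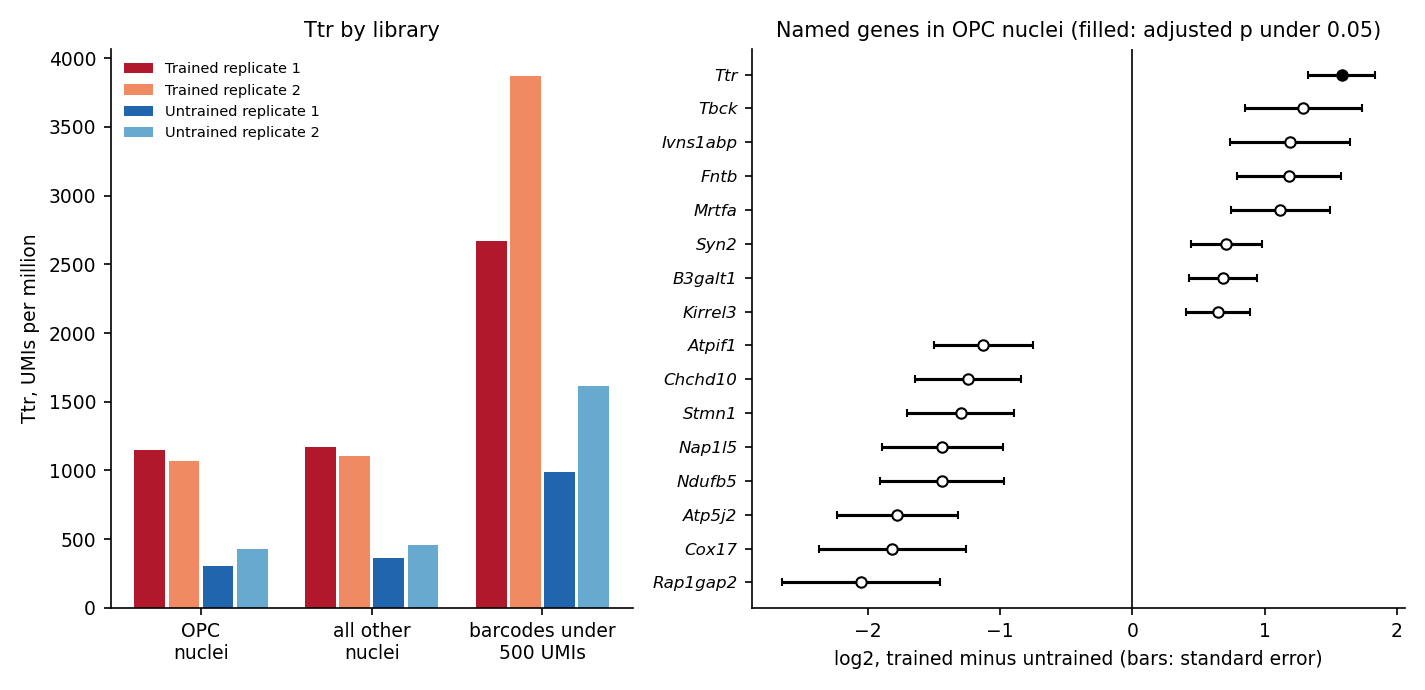
Left, Ttr in CPM by library in OPC nuclei, in other nuclei and in barcodes under 500 UMIs; right, log2 difference with SE, trained minus untrained OPC nuclei, for 16 named genes, filled where the adjusted p was under 0.05. Only Ttr is filled, at 1.58, and its trained libraries are above the untrained ones in all 3 classes of barcode.

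Precursor genes were not called with training by edgeR or DESeq2, and 1 was lower at an unadjusted p under 0.05 in edgeR. Of the 22 outside the gate 17 were tested, with 3 log2 differences above 0 and 14 below and a median of -0.25, against -0.02 over all genes tested; without Trained replicate 1 the median was 0.01. Sox6 differed by -0.44 (SE 0.278, edgeR adjusted p = 0.918). Brinp3, a gene of the BMP and retinoic acid inducible family, had 225 and 563 CPM in trained OPC nuclei and 632 and 795 in untrained ones, with no overlap and Trained replicate 1 lowest (log2 -0.64, edgeR adjusted p = 0.876). None of the receptor, channel, matrix, pathway or myelin genes tested was called.

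Beyond Ttr, no gene reached the threshold. In simulated data this test called 3 of 87 genes changed 2-fold and 47 of 86 changed 4-fold, so it could miss many changes. Atp5j2, a subunit gene of the mitochondrial ATP synthase, had the smallest unadjusted p of those named as lower, with 28.1 and 67.5 CPM in trained OPC nuclei and 237 and 154 in untrained ones (log2 -1.78, edgeR adjusted p = 0.463). Fntb, which encodes a protein farnesyltransferase subunit, had the smallest of the uncalled genes named as higher, with 197 and 173 CPM in trained OPC nuclei and 70.6 and 86.8 in untrained ones (log2 1.18, edgeR adjusted p = 0.790). The groups did not overlap for either gene, which the rule for naming genes required. Of the other named genes, Kirrel3, a synaptic adhesion protein, had 1264 and 886 CPM in trained OPC nuclei and 677 and 594 in untrained ones, and Syn2, a synaptic vesicle protein of neurons, 871 and 578 (trained) and 445 and 354 (untrained). Stmn1, a microtubule regulator, had 112 and 105 (trained) and 324 and 180 (untrained) CPM. For these 3 the groups did not overlap either, as was so for 615 genes with trained above untrained (18.2%) and 575 below (17%). Of 72 cytosolic ribosomal protein genes tested 68 had a log2 difference below 0 (median -0.52), and of 67 oxidative phosphorylation genes 62 did (median -0.50). Of these, 0 were called by edgeR or DESeq2, and 20 and 9 were lower at an unadjusted p under 0.05 in edgeR. Ribosomal protein genes summed to 11013 and 10822 (trained) and 17529 and 12975 (untrained) CPM in OPC nuclei, against 13264 and 12205 (trained) and 19291 and 13401 (untrained) in other nuclei, the same order of libraries in both classes.

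The effect of training was then compared between OPC nuclei and the rest. As an interaction in edgeR's quasi-likelihood test, 0 of 15025 genes were called against all other nuclei (434 at an unadjusted p under 0.05; DESeq2 called 0, with 83 unadjusted) and 0 of 5493 against oligodendrocyte-gate nuclei (235; DESeq2 called 0, with 9 unadjusted). In simulated data the first test called 0 of 97 genes changed 2-fold and 0 of 96 changed 4-fold. The second called 0 of 97 and 6 of 98. Both tests could thus miss most changes of these sizes, and 0 calls do not show that the effects were alike. Nsd1, a histone methyltransferase gene, had the smallest p against other nuclei, with 112 and 173 CPM in trained OPC nuclei and 270 and 347 in untrained ones, against 256 and 250 (trained) and 221 and 249 (untrained) in other nuclei. The trained OPC libraries were the low ones, and the interaction was -1.15 on the log2 scale and not called. Ehd3 and Wsb2 had no UMI in trained OPC nuclei and 18 and 19 UMIs in untrained ones, while in other nuclei Ehd3 had 48.2 and 36.5 (trained) and 38.6 and 37.9 (untrained) CPM and Wsb2 48.6 and 42.1 (trained) and 52.0 and 43.0 (untrained) CPM.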

How the data were processed

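Nuclei of 4 hippocampal libraries were sequenced with droplet 3-prime chemistry. The authors deposited raw UMI counts per gene and barcode for 32285 features, made with Cell Ranger 8 and STAR on GRCm39 (mm39) per the submitters' processing notes; the file headers name Cell Ranger 7.0.0. The deposited counts span 41903 to 79810 barcodes a library, including barcodes under 500 UMIs, which were used only for Ttr and marker levels. No doublet caller was run, since the gate fixes the members; leaving out the top 5% by UMIs was an alternative.

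UMI counts were summed per library and class. Levels are CPM within that class and library. Sums were tested with edgeR 4.0.16 (R 4.3.3; filterByExpr, TMM, glmQLFTest), Benjamini-Hochberg over all genes tested, threshold 0.05. Training was tested with no block and comparisons of classes with library as a block and the 18 gate genes left out. The interactions also had library as a block, but the gate genes were kept in them. DESeq2 1.42.0 was an alternative. Shares were compared over the 6 splits of 4 libraries; intervals cover counting error only. The fits were tested on simulated data.

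Members and gene lists were chosen with earlier results of these data known. Named genes were up to 12 called genes a direction with the smallest p and an absolute log2 difference of at least 1, in 4 of 4 libraries on one side (for training, libraries not overlapping, filled up to 8 by unadjusted p; for interactions, the 4 smallest p), plus gate genes and the most counted list members. Some named genes are not reported here. Other list members in the text were picked after their values were seen. Markers of microglia, endothelium and pericytes were summed as well: OPC nuclei had 270 to 450, 45.0 to 66.8 and 67.5 to 154 CPM. Promoters were matched by symbol. Alternatives are listed in the closing section.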

Additional observations from a re-analysis of the deposited data

How the results depend on the processing

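The share of OPC nuclei, -0.348 percentage points (trained minus untrained), was 0.167 among nuclei with at least 1000 UMIs and -0.567 to -0.129 with each library left out. Genes called with training numbered 1, but 0 with at least 1000 UMIs, 2 with gate sums of at least 5, 0 in members without a UMI of 5 neuron genes and 0 to 6 with each library left out; the 6 without Untrained replicate 2 included Atp5j2, Stmn1 and Chchd10, all lower, and the 0 was without Untrained replicate 1. The log2 difference of Ttr ran from 1.32 to 1.80, and its call was lost in 3 settings. Against all other nuclei 431 genes became 213 with DESeq2, 225 with no library block, 70 with at least 1000 UMIs, 214 with gate sums of at least 5, 125 in members with Pdgfra or Cspg4 (chosen after seeing the data) and 200 to 483 with a library left out (without Trained replicate 2 230, without Untrained replicate 1 200, without Untrained replicate 2 219). Against oligodendrocyte-gate nuclei 497 became 214, 327, 181 and 296 in the first 4 of these settings, 330 in nuclei thinned to 500 UMIs, 146 without neuron UMIs, 247 with Pdgfra or Cspg4 and 275 to 567 with a library left out, the lowest without Untrained replicate 1. Against astrocyte-gate nuclei 436 became 138 with DESeq2, 58 with at least 1000 UMIs, 251 thinned, 105 without neuron UMIs and 314 to 441 with a library left out. Of named genes, 2 interactions reversed, both in members without neuron UMIs: Wsb2 to 0.10 against other nuclei and Nrg3os to 0.21 against oligodendrocyte-gate nuclei. Beyond fewer nuclei in the stricter settings, the cause was not tested. With a replicate block, as if equal numbers paired the libraries, 1 gene was called with training (173 unadjusted) and Ttr was 1.55; deviations of Trained replicate 1 and Untrained replicate 1 correlated at 0.0529 over 3384 genes, and no label says the numbers pair.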
